A study of Homo sapiens with 6 samples.

Results

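The genes described here are 35 genes of DNA repair and of the kinases that signal DNA damage. They were taken from a list of symbols, and no measured value enters the rule that picks their rows. The list itself was chosen with earlier results of these data known. All 35 were among the 15924 symbols of the count table, and all 35 had enough counts to be among the 13188 genes tested. Messenger RNA was sequenced from WPMY-1 cells, a single line of human prostate stromal cells immortalized with the large T antigen of SV40, a protein that binds p53 and the retinoblastoma protein. Control cells (n = 3 libraries) had no lactate added, and lactate-treated cells (n = 3 libraries) were kept for 48 h with 24 mM lactate. The labels give the same serum-containing DMEM and a CO2 atmosphere for both groups, whereas the study's methods describe the treatment as lactic acid adjusted to a mildly acidic pH, in medium that lacked bicarbonate and without CO2. The pH of the control medium of these libraries is not stated in the sources used here, so lactate and acidity cannot be told apart. These are bulk libraries, in which fewer cells of a type and less RNA per cell cannot be told apart.

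DNA is damaged continuously, and each kind of lesion has its own repair machinery. Altered bases and nicks are handled by base excision and single-strand break repair, bulky adducts by nucleotide excision repair, replication errors by mismatch repair, and crosslinks by the Fanconi anemia pathway. Broken chromosomes are rejoined either directly, by non-homologous end joining, or by copying from the sister chromatid, by homologous recombination, after the kinases ATM and ATR have signalled the damage. The poly(ADP-ribose) polymerase PARP-1, which the study followed in stromal cells given lactate, is itself a sensor of DNA nicks and recruits base excision repair proteins.

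The libraries held 20238653 to 46505372 counts, and the members together took 3412 to 4057 CPM of each library, where CPM are counts scaled to a library of 1000000 with TMM factors. Control replicate 1 and lactate replicate 1 stood apart from the other libraries of their groups, with a chi-square of 59.35 to 117.1 per degree of freedom in each pair that held one of them, against 10.38 for control replicates 2 and 3 and 7.13 for lactate replicates 2 and 3. Genes poor in GC were lower in these libraries. In the lowest of 4 equal bins by GC content, genes had a median deviation, on the log2 scale, of -0.18 in control replicate 1 and -0.42 in lactate replicate 1, against 0.29 and 0.44 in the other control libraries and 0.01 and -0.10 in the other lactate libraries. Results below are therefore also given, for the members they turn on, for 4 libraries without both replicates 1 or for a fit in which the trend of each library with GC content and transcript length was taken out (the GC-adjusted fit). Of 10 stromal markers, *VIM* was at 2532 to 2906 CPM and *COL1A1* at 1264 to 1646 CPM, whereas *FAP* was at 0.737 to 2.60 CPM. Among the 10, *S100A4* (log2 fold change -1.63, adjusted p = 0.0122) and *COL3A1* (-1.21, adjusted p = 0.00492) fell with lactate and *TAGLN* rose (1.57, adjusted p = 0.00548). Of the epithelial, endothelial and leukocyte markers examined, *EPCAM*, *CDH1*, *KRT5*, *PTPRC*, *CD3E*, *PECAM1*, *VWF* and *CDH5* lay between 0 and 1.03 CPM in every library, whereas *KRT8*, *KRT18* and *CD68* were expressed, at no less than 55.2 CPM. *CD68*, a lysosomal protein of macrophages and other cells, rose (log2 fold change 0.67, adjusted p = 0.0280), while the macrophage marker *CD14* lay between 0.745 and 1.90 CPM, and the part of such cells in the results was not tested. *KLK3* and *TMPRSS2* were not analysed here.

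Few of the repair genes passed the test for a change with lactate, and how many did so depended on the fit, as given below. *LIG3*, which encodes the DNA ligase that seals nicks in base excision and single-strand break repair, and *ERCC2*, which encodes the XPD helicase of the repair and transcription factor TFIIH, rose. *RAD51C*, which encodes a protein of homologous recombination, fell. The other 32 members did not pass the test (edgeR quasi-likelihood, adjusted p under 0.05 over all genes tested). The 3 members that passed are 8.57% of the 35, close to the 9.43% of all tested genes that passed, of which 5.29% were higher and 4.14% lower with lactate. All 3 lactate libraries lay above all 3 controls for 7 members, where 17.3% of all tested genes did so, and below them for 6, where 15.3% did so, so that the groups did not overlap for 13 members, or 37.1%, against 32.6%. An unadjusted p under 0.05 was reached by 5 members in the upward and 6 in the downward direction, 31.4% of the members against 27.8% of all genes. By these counts the repair genes moved about as often as genes at large. The log2 fold change was positive for 11 members and negative for 24, with a median of -0.22 and a range from -1.06 to 0.75, beside a median of -0.02 over all tested genes.

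**Figure D1:**
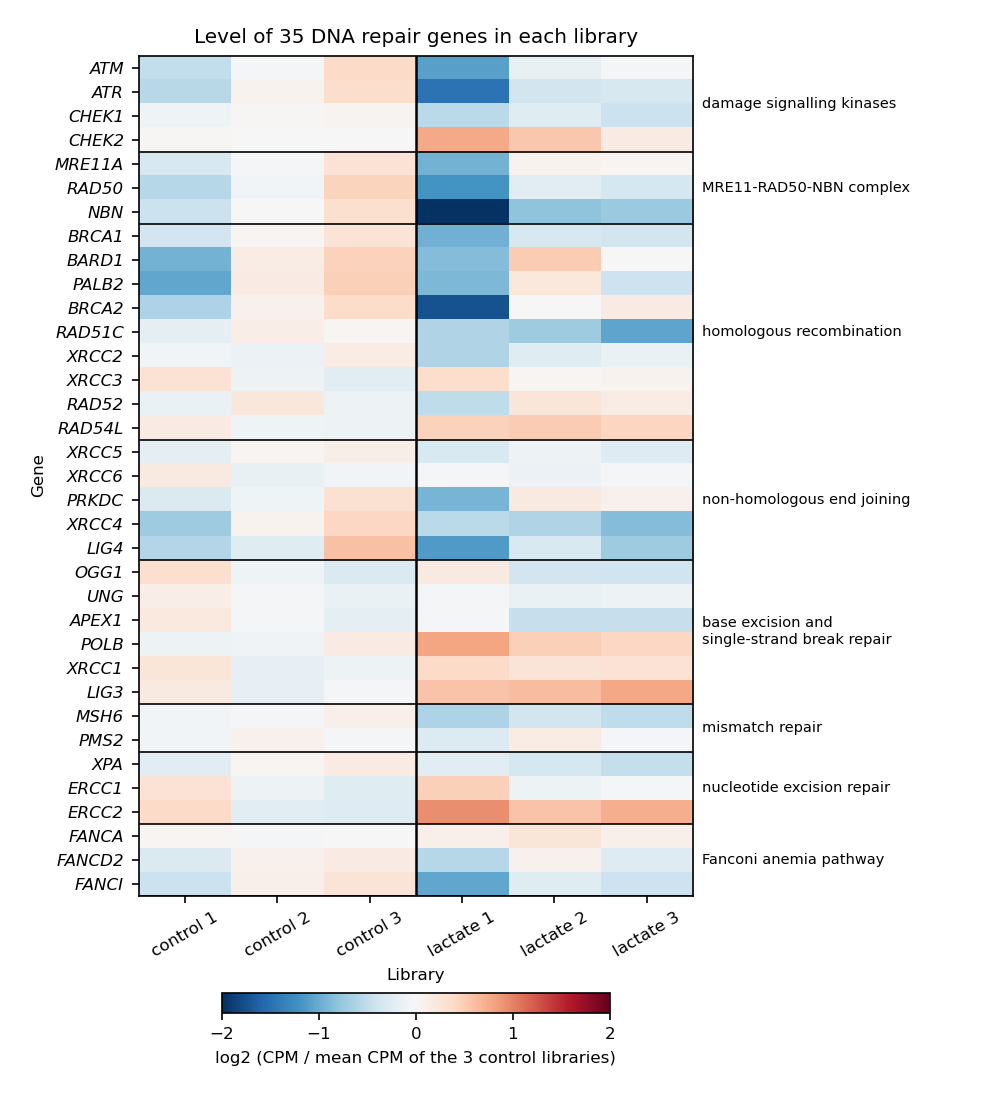
Level of each of the 35 members (rows, by pathway) in each of the 6 libraries (columns), as log2 of the CPM over the mean of the 3 control libraries. *LIG3*, *ERCC2* and *RAD54L* are higher in all 3 lactate libraries and *NBN* and *RAD51C* lower, while many members are lowest in lactate replicate 1.

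The promoters of the 3 genes that passed are shown because these genes carry the calls. Each run is the 250 bases before the first listed RefSeq start on GRCh38.p14, read 5′ to 3′ on the strand of the gene, for *RAD51C* at chr17:58692323-58692572 on the plus strand, *LIG3* at chr17:34980262-34980511 on the plus strand and *ERCC2* at chr19:45370574-45370823 on the minus strand. *RAD51C* has 2 listed starts, of which only the first was searched.
RAD51C: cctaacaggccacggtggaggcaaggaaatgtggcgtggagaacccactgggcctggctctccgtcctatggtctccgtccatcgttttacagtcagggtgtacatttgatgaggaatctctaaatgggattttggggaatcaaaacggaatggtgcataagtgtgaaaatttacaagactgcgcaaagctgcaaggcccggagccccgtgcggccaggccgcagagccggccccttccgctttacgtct
LIG3: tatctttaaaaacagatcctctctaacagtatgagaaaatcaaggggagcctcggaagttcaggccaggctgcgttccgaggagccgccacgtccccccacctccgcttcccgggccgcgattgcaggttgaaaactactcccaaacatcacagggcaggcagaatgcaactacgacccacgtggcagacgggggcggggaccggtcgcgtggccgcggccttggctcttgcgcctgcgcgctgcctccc
ERCC2: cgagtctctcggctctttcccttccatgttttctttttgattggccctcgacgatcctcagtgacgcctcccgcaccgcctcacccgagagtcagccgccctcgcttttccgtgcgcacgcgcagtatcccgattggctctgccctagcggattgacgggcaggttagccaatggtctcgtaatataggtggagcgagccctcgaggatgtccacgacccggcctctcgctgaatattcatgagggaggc
All letters are in lower case because none of these stretches held either motif that was searched on both strands, namely an E2F motif, as any of TTTCCCGC, TTTCGCGC, TTTGCCGC and TTTGGCGC, and the CHR motif TTTGAA. Both motifs are known from promoters of cell cycle genes. GC content was 55.2% for *RAD51C*, 62.0% for *LIG3* and 59.6% for *ERCC2*.

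Of the 35 members, 30 had a promoter in the RefSeq table (250 bases before to 50 after the start). An E2F motif was held by 6 of these 30, and by 10 of 99 other repair genes with a promoter (10.1%). The share was 5.38% of the 10053 tested genes with a promoter and 3.33% of all 27305 promoters. The 6 members were *XRCC2*, *XRCC6*, *MSH6*, *PMS2*, *FANCA* and *FANCD2*. None of them passed the test with lactate, and their log2 fold changes ran from -0.49 for *MSH6* to 0.15 for *FANCA*. The CHR motif was held by *ATM* and *XRCC1* (6.67%), against 10.1% of the other repair genes, 9.46% of tested genes and 15.4% of all promoters. A pair of these matches is shown with 11 bases on either side, the motif in capitals, because they show the same motif on opposite strands: in *FANCA* (chr16:89816801-89816830, minus strand) it reads as its reverse complement, and in *PMS2* (chr7:6009131-6009160, minus strand) it reads forward.
FANCA: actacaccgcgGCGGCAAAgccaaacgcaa
PMS2: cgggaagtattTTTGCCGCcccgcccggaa
A match of letters is not evidence that the factor binds there, and no binding was measured in these libraries.

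Among the damage signalling kinases, none of 4 members passed. *ATM*, the kinase that responds to broken chromosomes, had 14.8, 20.5 and 27.0 CPM in controls and 9.73, 18.8 and 20.2 CPM with lactate, so the groups overlapped (log2 fold change -0.35, adjusted p = 0.477). *ATR*, the kinase of stalled replication forks, had a log2 fold change of -0.62 with a standard error (SE) of 0.330 (adjusted p = 0.250). Their direct targets did not pass either. *CHEK1*, which acts mainly downstream of ATR, was below every control in all 3 lactate libraries, at 54.8, 58.7 and 60.6 CPM in controls and 39.8, 48.9 and 42.9 CPM with lactate (log2 fold change -0.40, adjusted p = 0.114). *CHEK2*, which acts mainly downstream of ATM, was near-constant in controls, at 13.3, 13.0 and 13.0 CPM, and higher in all 3 lactate libraries, at 22.1, 19.0 and 14.7 CPM (log2 fold change 0.51, adjusted p = 0.126). In the GC-adjusted fit the call for *CHEK2* was gained (log2 fold change 0.45, adjusted p = 0.0472), while *CHEK1* had -0.13 (adjusted p = 0.432). *CHEK2* has annotated pseudogenes, to which the counting may have lost reads.

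The MRE11-RAD50-NBN complex binds and trims broken ends and recruits ATM. Its 3 genes had log2 fold changes of -0.21 for the nuclease *MRE11A*, -0.52 for the ATPase *RAD50* and -1.06 for *NBN*, and none passed. Of the exonic bases of *RAD50* 79.7% are shared with the annotated gene *AC116366.3* on the same strand, so the level of *RAD50* is uncertain. *NBN*, the subunit that brings ATM to the complex, had the lowest log2 fold change among the 35. Its levels were 13.6, 18.5 and 22.9 CPM in controls and 4.68, 10.5 and 11.0 CPM with lactate, with no overlap. The mean went from 18.3 ± 4.65 to 8.75 ± 3.53 CPM (SD, n = 3 each), with an SE of 0.327 and an adjusted p of 0.0728. The threshold was met by *NBN* in 5 of 14 alternatives, including the GC-adjusted fit (-0.71, adjusted p = 0.0332), DESeq2 (0.0132) and the fit that left out control replicate 1 (-1.24, adjusted p = 0.0382). In all 14 its direction was down. Its longest transcript has a GC content of 37.4%, among the lowest of the members, and the difference was smaller after the adjustment for GC content.

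Homologous recombination held 9 members, of which 1 fell and none rose. *RAD51C* lies at chr17:58692573-58735611 on the plus strand (GENCODE 29 on GRCh38), is protein coding and shares no exonic base with another annotated gene. Control libraries had 21.4, 26.8 and 25.2 CPM and lactate libraries 16.1, 14.9 and 11.8 CPM. Every lactate library thus lay below every control, with means of 24.5 ± 2.76 and 14.3 ± 2.20 CPM. The log2 fold change was -0.78 (SE 0.186), with an adjusted p of 0.0353. It passed in 10 of 14 alternatives, with the GC-adjusted fit at -0.51 (adjusted p = 0.0314). With replicates 2 and 3 of each group alone *RAD51C* had -0.96 (adjusted p = 2.63e-07), in a fit where 47.4% of all genes passed. It did not pass without control replicate 2 (adjusted p = 0.176), control replicate 3 (0.109), lactate replicate 2 (0.0830) or lactate replicate 3 (0.154). Of all genes, 1.28%, 2.69%, 3.82% and 1.56% passed in these fits, against 9.43% with all 6 libraries.

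*XRCC2* and *XRCC3*, which also act in homologous recombination, did not pass. *XRCC2* was below every control in all 3 lactate libraries by a small margin, at 18.2 to 21.9 CPM in controls and 13.0 to 18.0 CPM with lactate (log2 fold change -0.31, adjusted p = 0.306, and -0.01 in the GC-adjusted fit). *XRCC3*, which forms a complex with RAD51C, had 128 to 182 CPM in controls and 154 to 191 CPM with lactate (log2 fold change 0.16, adjusted p = 0.578). Of its exonic bases 76.7% are shared with *KLC1* on the opposite strand, itself at 204 to 253 CPM, and its log2 fold change turned to -0.22 in the GC-adjusted fit (adjusted p = 0.0654), so its own level is uncertain. *RAD54L*, a motor protein that acts in the strand exchange step, had 72.4, 60.9 and 60.3 CPM in controls and 88.9, 91.8 and 86.8 CPM with lactate. All lactate libraries were above all controls, with means of 64.5 ± 6.79 and 89.2 ± 2.52 CPM, but the test missed the threshold (log2 fold change 0.47 with an SE of 0.140, adjusted p = 0.0680). The threshold was met in 5 of 14 alternatives, including the GC-adjusted fit (0.31, adjusted p = 0.0269) and the fit without control replicate 1 (adjusted p = 0.0195). A share of 25.1% of its exonic bases overlaps *LRRC41* on the opposite strand (log2 fold change 0.30, adjusted p = 0.233).

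The BRCA genes did not pass. *BRCA1*, which promotes resection of broken ends, had 27.3, 36.9 and 43.2 CPM in controls and 18.4, 28.6 and 27.7 CPM with lactate (log2 fold change -0.52 with an SE of 0.231, adjusted p = 0.180). The groups overlapped because control replicate 1 lay below lactate replicates 2 and 3, and with the GC adjustment the lactate libraries had 26.2 to 27.7 CPM and the controls 31.4 to 32.8 CPM (log2 fold change -0.25, adjusted p = 0.0710). *BARD1*, the ubiquitin ligase partner of BRCA1, had a log2 fold change of 0.00 (SE 0.407), with 3.49 to 9.21 CPM in controls and 3.68 to 9.56 CPM with lactate. *PALB2*, which links BRCA1 to BRCA2, had -0.29 (SE 0.393), and *BRCA2*, a mediator of strand exchange, had -0.30 (SE 0.437). *RAD52*, an annealing protein, had 8.83 ± 1.26 and 8.80 ± 2.28 CPM and a log2 fold change of 0.00. The signs of *BARD1* and *RAD52* depended on the scaling. With SEs of 0.393 to 0.437, changes of the size seen for *RAD51C* cannot be read as absent in *BARD1*, *PALB2* and *BRCA2*.

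Non-homologous end joining held the most abundant members, and none of its 5 genes passed. Per kilobase of the longest transcript, *XRCC6* (340 CPM per kb in controls) and *XRCC5* (151), which encode the Ku heterodimer that caps broken ends, ranked first and second of the 35, and *BRCA2* (0.648) ranked last. If the libraries held 3′ ends, as the methods but not the labels say, levels would not be divided by length, and by CPM alone *PRKDC* (631) lay above *XRCC5* (569) and *LIG4* (3.22) was last. *XRCC6* had 830 to 1046 CPM in controls and 853 to 902 CPM with lactate (log2 fold change -0.06, SE 0.138). *XRCC5* had 503 to 618 and 459 to 528 CPM (log2 fold change -0.22 with an SE of 0.139, adjusted p = 0.323). *PRKDC*, the kinase that Ku recruits, had a log2 fold change of -0.14 with a wide SE of 0.279, since lactate replicate 1 held 332 CPM and the other lactate libraries 717 and 673 CPM. The ligation step was lower in value but did not pass. *LIG4*, its ligase, had -0.66 (SE 0.362, adjusted p = 0.266) at 1.47 to 4.80 CPM over all libraries, and the scaffold *XRCC4* had 7.75, 13.4 and 16.9 CPM in controls and 8.73, 8.36 and 6.96 CPM with lactate (log2 fold change -0.66 with an SE of 0.282, adjusted p = 0.167). Control replicate 1 was the library that overlapped, and without it *XRCC4* passed (log2 fold change -0.92, adjusted p = 0.0187), whereas the GC-adjusted value was -0.22 (adjusted p = 0.396). Processed pseudogenes of *XRCC6* are annotated, so some of its reads may be assigned elsewhere.

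In base excision and single-strand break repair 3 of 6 members lay above every control in all lactate libraries, as did 17.3% of all tested genes, and *LIG3* passed. With the GC adjustment *LIG3* and *POLB* lay above every control and *UNG* and *APEX1* below. *LIG3* lies at chr17:34980494-35009743 on the plus strand and is protein coding. Its levels were 53.2, 42.0 and 46.1 CPM in controls and 69.8, 72.5 and 80.2 CPM with lactate. The groups were well apart, with means of 47.1 ± 5.62 and 74.2 ± 5.41 CPM, and the log2 fold change was 0.65 (SE 0.151), with an adjusted p of 0.0315. It passed in 10 of 14 alternatives and had 0.68 in the GC-adjusted fit (adjusted p = 0.0110). With replicates 2 and 3 of each group alone *LIG3* had 0.79 (adjusted p = 6.11e-08), in a fit where 47.4% of all genes passed. It did not pass without control replicate 2 (adjusted p = 0.178), control replicate 3 (0.112), lactate replicate 2 (0.0789) or lactate replicate 3 (0.154). A smaller share of all genes passed in these fits too. Of its exonic bases 29.1% overlap *RFFL* on the opposite strand, which was at 4.73 to 8.15 CPM and differed by -0.31 on the log2 scale (adjusted p = 0.374), opposite in sign to that of *LIG3*.

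*XRCC1*, the scaffold that binds and stabilizes DNA ligase III, was above every control in all 3 lactate libraries, with 50.7, 38.2 and 39.9 CPM in controls and 56.0, 51.6 and 52.7 CPM with lactate (log2 fold change 0.31, adjusted p = 0.230). *XRCC1* passed with 4 libraries (0.42, adjusted p = 0.00218) and when control replicate 1 was left out, but in the GC-adjusted fit the difference was 0.07 (adjusted p = 0.626) and the groups overlapped. *POLB*, the polymerase that fills the gap before ligation, had 20.6, 21.0 and 24.9 CPM in controls and 38.5, 31.0 and 29.6 CPM with lactate. All lactate libraries were above all controls (log2 fold change 0.57 with an SE of 0.173, adjusted p = 0.0689), and *POLB* had the largest log2 fold change of the members in the GC-adjusted fit (0.85, adjusted p = 0.00191), where its levels were 17.9 to 21.3 CPM in controls and 33.3 to 40.7 CPM with lactate. The glycosylases *OGG1*, which removes oxidized guanine, and *UNG*, which removes uracil, had -0.18 (adjusted p = 0.627) and -0.09 (adjusted p = 0.701). *APEX1*, the endonuclease that cuts at the resulting abasic site, had 296, 251 and 224 CPM in controls and 253, 186 and 186 CPM with lactate, which overlapped (log2 fold change -0.30, adjusted p = 0.283). With the GC adjustment *APEX1* passed with a lower level (log2 fold change -0.36, adjusted p = 0.0211, 243 to 276 against 193 to 220 CPM). Steps of the pathway did not divide by direction when its other genes were included, since in the GC-adjusted fit the glycosylase *NEIL2* (0.62, adjusted p = 0.00423) and the endonuclease *APEX2* (0.35, adjusted p = 0.0208) were higher and the flap nuclease *FEN1* lower (-0.25, adjusted p = 0.0416). *APEX2* and *FEN1* were picked after their values were seen.

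**Figure D2:**
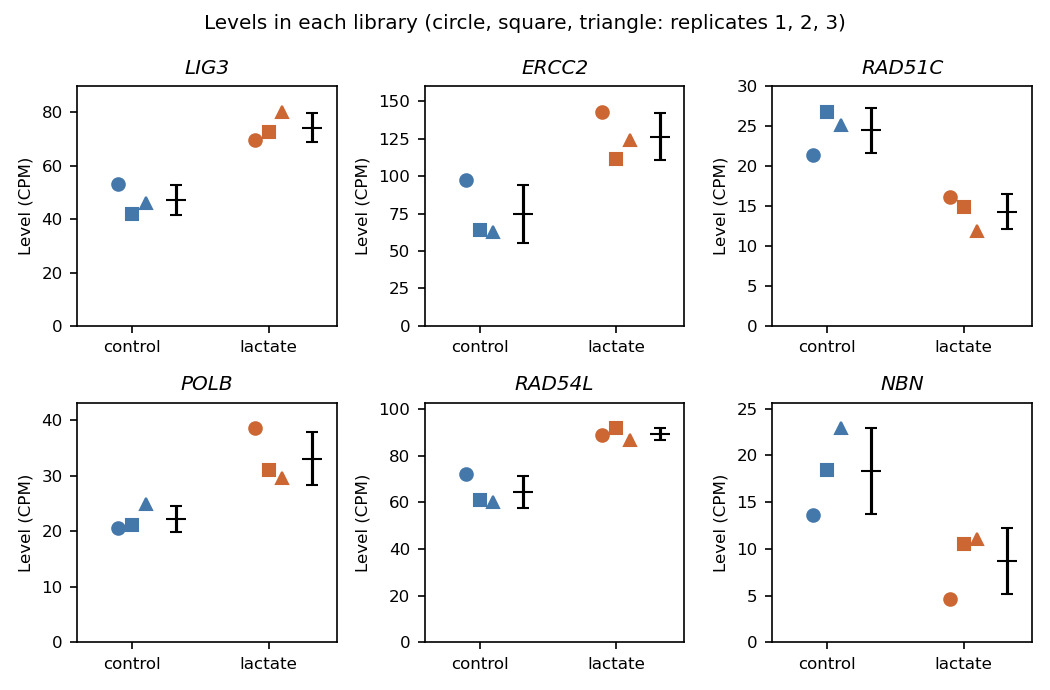
CPM of 6 members in each library (points, with circle, square and triangle for replicates 1, 2 and 3) and the mean ± SD of each group of 3 (bars), on axes that start at 0. These genes were picked for display from members that passed in 1 or more fits, so the lack of overlap in all 6 is no separate result. Among all tested genes the groups did not overlap for 32.6%. *LIG3*, *ERCC2* and *RAD51C* passed the test.

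Nucleotide excision repair held 3 members, of which 1 rose and none fell. *ERCC2* lies at chr19:45349837-45370918 on the minus strand and is protein coding. Its levels were 97.5, 64.3 and 62.8 CPM in controls and 143, 112 and 124 CPM with lactate. No lactate library overlapped the controls, and in both groups replicate 1 was the highest. The means were 74.9 ± 19.6 and 126 ± 15.8 CPM, with a log2 fold change of 0.75 (SE 0.199) at an adjusted p of 0.0466. *ERCC2* had the highest log2 fold change among the members and a GC content of 60.0%, the second highest of the 35, and in the GC-adjusted fit the change was 0.47 (adjusted p = 0.0144). It passed in 8 of 14 alternatives. The call was lost when genes under 10 CPM were left out (adjusted p = 0.0502), and also without control replicate 2 (adjusted p = 0.209), control replicate 3 (0.151), lactate replicate 1 (0.101), lactate replicate 2 (0.0699) or lactate replicate 3 (0.154). In each of these fits a smaller share of all genes passed as well. A share of 8.29% of its exonic bases overlaps *KLC3*, which had no more than 0.573 CPM in any library. *ERCC1*, which with ERCC4 cuts the damaged strand, differed by 0.14 on the log2 scale (adjusted p = 0.684, and -0.08 in the GC-adjusted fit) and shares 28.6% of its exonic bases with *CD3EAP*. *XPA*, which verifies the lesion, had 9.63, 11.6 and 12.7 CPM in controls and 9.62, 8.81 and 8.15 CPM with lactate, so that the groups were separated by less than 0.1 CPM (log2 fold change -0.35, adjusted p = 0.259).

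In mismatch repair, *MSH6*, which recognizes mismatches, came close to the threshold. It had 176, 178 and 197 CPM in controls and 119, 143 and 130 CPM with lactate, with no overlap. The log2 fold change was -0.49 (SE 0.136, adjusted p = 0.0542), and it passed with DESeq2 (adjusted p = 0.0124) and in 2 more of 14 alternatives, but in the GC-adjusted fit it was -0.18 (adjusted p = 0.442) and the groups overlapped. *PMS2*, which nicks the strand to be corrected, had -0.04 (SE 0.174), and its annotated pseudogenes, *PMS2CL* among them, can take its reads. In the Fanconi anemia pathway, *FANCA*, of the core complex, was above the controls in all 3 lactate libraries by a small margin (72.0 to 75.6 CPM in controls, 78.7 to 87.2 CPM with lactate, log2 fold change 0.15, adjusted p = 0.474, and -0.06 after GC adjustment). Its substrates *FANCD2* and *FANCI*, which clamp onto DNA as a pair, had -0.23 (adjusted p = 0.491) and -0.53 (adjusted p = 0.188).

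**Figure D3:**
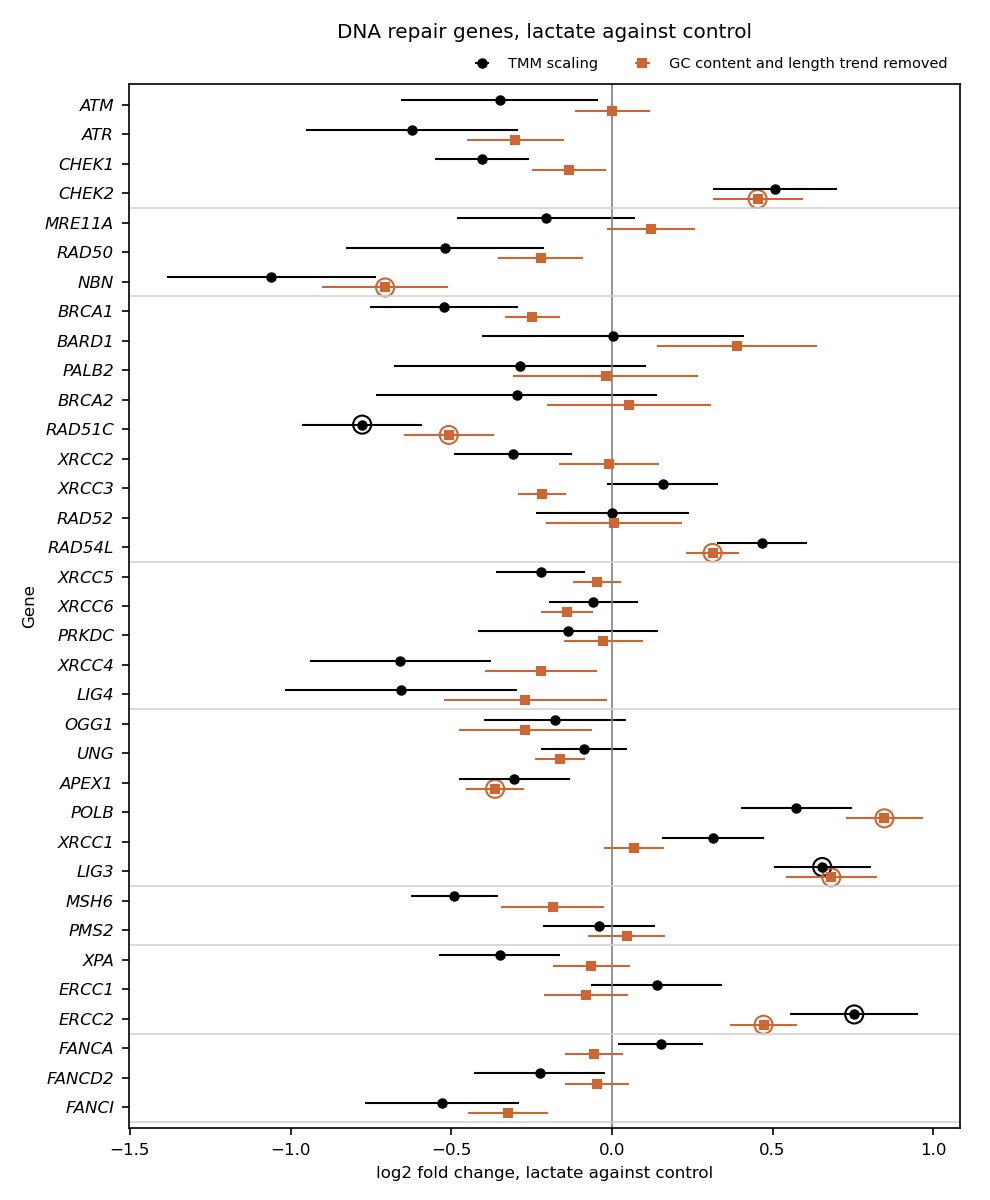
log2 fold change of each member with lactate against control, with bars of 1 SE, under TMM scaling (black) and in the GC-adjusted fit (orange), where a ring marks an adjusted p under 0.05. Rings mark *LIG3*, *ERCC2* and *RAD51C* in both fits, and *CHEK2*, *RAD54L*, *POLB*, *NBN* and *APEX1* only in the GC-adjusted fit.

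The values of the members varied with base composition. Over the 35 members the log2 fold change and the GC content of the longest transcript had a Pearson r of 0.67 and a Spearman rho of 0.72, given as a description, since the genes share the same 6 libraries. Over all genes with a GC value the Pearson r was 0.45. The median log2 fold change of all tested genes went in steps from -0.35 in the lowest of the 4 GC bins to -0.13, 0.12 and 0.27 in the next bins, and the repair genes are concentrated at the low end, with 13, 10, 9 and 3 members in these bins and a median GC content of 43.4% against 48.3% for all genes. In the GC-adjusted fit the Pearson r over the members was 0.19 and the members' median log2 fold change was -0.06, with 12 positive and 23 negative. In that fit 8 members passed, which is 22.9% of the 35 and level with the 22.8% of all genes, and they were 5 higher (10.8% of all genes) and 3 lower (12.0%). Whether the trend itself came from the libraries or from the treatment cannot be told apart here.

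**Figure D4:**
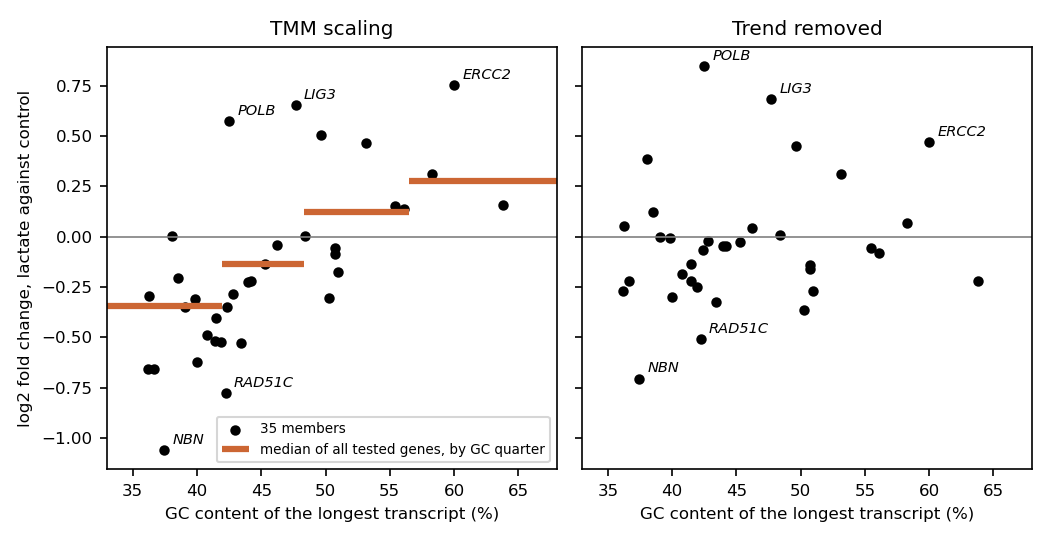
log2 fold change of the 35 members (points) against the GC content of the longest transcript, under TMM scaling (left, with the median of all tested genes in each of the 4 GC bins as bars, from -0.35 to 0.27) and in the GC-adjusted fit (right). The slope on the left (Pearson r 0.67) is mostly gone on the right (0.19), where *POLB*, *LIG3* and *ERCC2* stay highest and *NBN* and *RAD51C* lowest.

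How many members passed depended on the libraries that stood apart. Without replicate 1 of each group 20 of the 35 passed, 6 higher and 14 lower (57.1% of the members and 47.4% of all genes). Of all 13288 genes tested in that fit, 3002 were higher and 3293 lower. The lower members were *RAD51C*, *ATR*, *CHEK1*, *RAD50*, *NBN*, *BRCA1*, *PALB2*, *XRCC5*, *XRCC4*, *LIG4*, *APEX1*, *MSH6*, *XPA* and *FANCI* and the higher ones *LIG3*, *ERCC2*, *CHEK2*, *RAD54L*, *POLB* and *XRCC1*. *LIG3*, *ERCC2* and *RAD51C* kept their direction and passed there too. DESeq2 with all 6 libraries called 7 members and 15.0% of all genes, namely these 3 with *RAD54L*, *POLB*, *NBN* and *MSH6*.

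Partners of a complex can be set against each other within a library, where scaling cancels. For 11 pairs, listed after the values of single genes had been seen, the log2 ratio of the counts was compared between groups. For 5 of them the groups did not overlap. In each of these 5 the first gene (*RAD51C*, *LIG3*, *NBN* or *ERCC2*) was itself apart between the groups, so the ratios partly repeat the single-gene values. The share over other pairs of genes was not computed. With 3 libraries against 3 the exact permutation test cannot go below p = 0.1, which is 0.22 after adjustment over the 11 pairs, so no pair can pass. *RAD51C* over *XRCC3* was -3.09, -2.37 and -2.34 in controls and -3.57, -3.37 and -3.72 with lactate (a difference of -0.95), but the level of *XRCC3* is uncertain, and with GC adjustment the log2 fold changes of these genes were -0.51 and -0.22. *NBN* over *MRE11A* was -0.53, -0.38 and -0.38 in controls and -1.45, -1.28 and -1.19 with lactate (a difference of -0.88). *NBN* over *RAD50* differed by -0.61, but the level of *RAD50* is uncertain too. *ERCC2* over *ERCC3*, the other helicase of TFIIH, differed by 0.91, and *LIG3* over *XRCC1* by 0.33. For the Ku pair (-0.17), *XRCC4* over *LIG4* (0.03), *FANCD2* over *FANCI* (0.30) and the remaining 3 pairs the groups overlapped. Partners differ in GC content, so the GC trend enters these ratios.

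**Figure D5:**
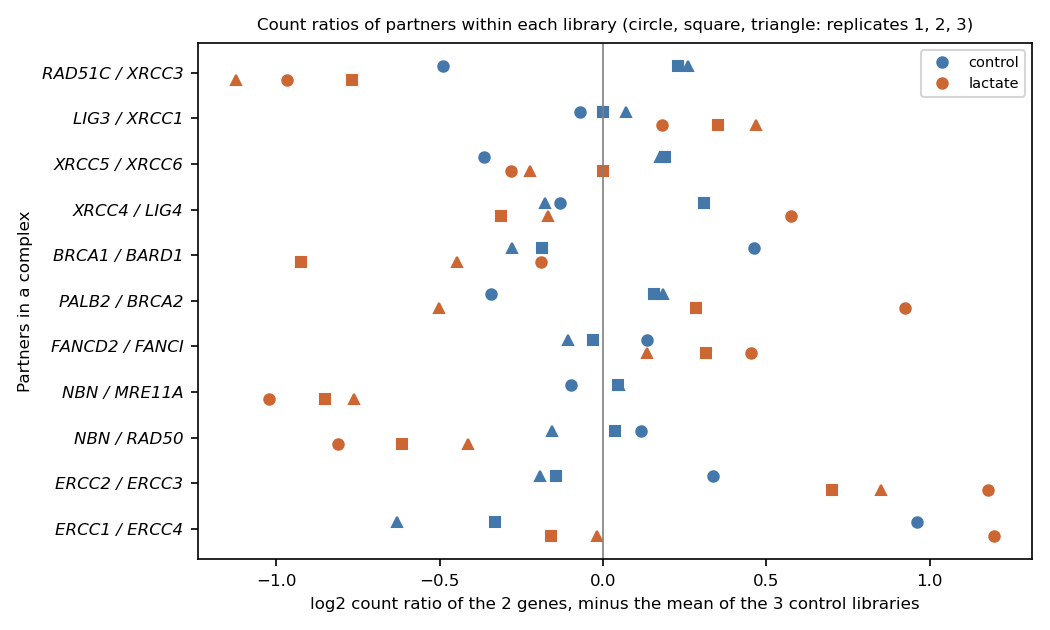
log2 ratio of the counts of 11 pairs of partners in each library, minus the mean of the 3 control libraries, with controls in blue and lactate in orange. The groups are apart for 5 pairs, in each of which the first gene was itself apart between the groups. The share over other pairs of genes was not computed. The ratio of *NBN* to *MRE11A* is lower by 0.88 with lactate while that of *XRCC4* to *LIG4* differs by 0.03.

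Of 115 other repair genes that were tested, 3 rose and 2 fell, where 5.29% of all tested genes rose and 4.14% fell. The median log2 fold change of the 115 was -0.11 (0.04 in the GC-adjusted fit, where the sign turns). Those that rose included *NEIL2*, a glycosylase of oxidized bases (15.9 ± 2.43 to 27.9 ± 3.16 CPM, a difference of 0.81 on the log2 scale, adjusted p = 0.0293) and *MGMT*, which reverses alkylated guanine (1.60 ± 0.357 to 3.27 ± 0.318 CPM, 1.01, adjusted p = 0.0453). Those that fell were *CLSPN*, the adaptor through which ATR activates CHEK1 (105 ± 17.7 to 61.8 ± 9.64 CPM, -0.76, adjusted p = 0.0349), and *GTF2H5*, a small subunit of TFIIH (17.3 ± 1.41 to 11.0 ± 0.843 CPM, -0.65, adjusted p = 0.0450). TFIIH thus had *ERCC2* higher and *GTF2H5* lower. Base excision repair held 1 of the rising genes among 18. None passed among 10 genes of end joining and 14 of the Fanconi anemia pathway. In the GC-adjusted fit 11 of the 115 were higher and 9 lower, where 10.8% of all genes were higher and 12.0% lower. *GTF2H5* no longer passed there (-0.32, adjusted p = 0.215). *SQSTM1*, the autophagy adaptor that the study follows and no member, fell (log2 fold change -0.97, adjusted p = 0.0191). *PARP1* had 515 to 590 CPM in controls and 500 to 574 CPM with lactate (log2 fold change -0.02, adjusted p = 0.930), and *PARP2* had -0.07 (adjusted p = 0.786).

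Many repair genes are transcribed with the cell cycle, so markers of proliferation are given beside them. None of 22 passed, 19 had a negative log2 fold change with a median of -0.30, and 9 were below every control in all 3 lactate libraries, as were 15.3% of all genes. *MKI67* had 286, 359 and 471 CPM in controls and 106, 290 and 271 CPM with lactate (log2 fold change -0.74, adjusted p = 0.192), and *PCNA* had -0.19 (adjusted p = 0.416). In the GC-adjusted fit 6 of the 22 were lower (12.0% of all genes), *MKI67* among them (-0.78, adjusted p = 0.0356), and none higher. At an unadjusted p under 0.05 in edgeR 6 of the 22 were lower and none higher. Of all 13188 genes tested, 1827 were lower and 1836 higher at that threshold. Of 16 targets of p53, 4 rose, where 5.29% of all genes did so, and none fell. Those that rose were *SESN2* (0.85, adjusted p = 0.0186), *GADD45A* (0.77, adjusted p = 0.0222), *BTG2* (0.73, adjusted p = 0.0276) and *CDKN1A*, the cell cycle inhibitor p21 (83.6 ± 10.0 to 134 ± 7.02 CPM, 0.68, adjusted p = 0.0239). In the GC-adjusted fit 6 of the 16 were higher (10.8% of all genes) and 1, *TP53I3*, lower (-0.38, adjusted p = 0.0183). *MDM2*, which encodes the ubiquitin ligase of p53, had -0.09 (adjusted p = 0.847). The part of proliferation or of p53 in the levels of the repair genes was not tested.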

How the data were processed

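RNA-seq was made from 6 libraries of WPMY-1 cells, 3 control and 3 lactate, and groups were taken from the treatment label. The labels call the samples biological replicates, and p-values measure only the spread between these samples. The deposited values are raw counts of reads for each gene symbol, made with an RNA-seq alignment application according to the study's methods. STAR, DESeq2 and hg38 are named in the submitters' processing notes, without versions. The annotation and strand setting of the counting are not given in the sources used here. Labels describe directional poly(A) libraries, while the methods name a kit for 3′ ends.

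The two-sided test was edgeR's quasi-likelihood F test (version 4.0.16, R 4.3.3) after filterByExpr and TMM scaling, with Benjamini-Hochberg adjustment over 13188 genes, which held 99.96% of the counts, and a threshold of 0.05. The SE is the log2 fold change over the root of F. Biological variation between libraries was 20.2% (common coefficient). Levels are TMM-scaled CPM, mean ± SD over 3 libraries, from 20238653 to 46505372 counts per library. Libraries were compared by chi-square, and the closest pair reached 7.13 per degree of freedom, so each library was counted as 1 sample. The fits were tested on simulated data, drawn with the dispersions that edgeR estimated, where DESeq2 made a larger share of false calls than edgeR. Because the simulation follows edgeR's own model, it cannot decide between the fits on these libraries.

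Of 15924 symbols, 15264 (95.9%) matched GENCODE 29, which gave coordinates, length and GC content of the longest transcript, and all 35 members matched. The GC-adjusted fit, on 12798 genes, removed from each library a spline trend (5 degrees of freedom each) with GC content and length. The 14 alternatives were DESeq2 1.42.0, its size factors in edgeR, total library size, no filter, a mean of at least 10 CPM, the GC-adjusted fit, 4 libraries with and without that adjustment, and each library left out. Promoters came from RefSeq on GRCh38.p14. Only the first listed start of each gene was searched, so a motif at another listed start would be missed.

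Members and lists were chosen with earlier results of these data known. All members are named. Some items are not reported here. *APEX2*, *FEN1* and *TP53I3* were named after their values were seen. Of the other repair genes those past the threshold (at most 4 per pathway and direction), *PARP1* and *PARP2* are named, *SQSTM1* as the gene the study follows, and of the proliferation and p53 lists up to 4 past the threshold in each direction with *MKI67*, *PCNA*, *CDKN1A* and *MDM2*. *RFFL*, *KLC1*, *KLC3*, *LRRC41*, *CD3EAP* and *AC116366.3* are named for their overlap with members, *ERCC3* as a partner, and the stromal and other cell type markers as a check of the label. Exonic bases were shared with another annotated gene in 21 of the 35 members. Shares not given above include 25.0% for *OGG1* (with *CAMK1*), 23.6% for *FANCA* (*ZNF276*), 16.4% for *ATR* (*AC109992.1*) and 16.2% for *MSH6* (*FBXO11*), all on the opposite strand.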

Additional observations from a re-analysis of the deposited data

How the results depend on the processing

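The direction of *LIG3*, *ERCC2*, *RAD51C*, *NBN*, *POLB*, *RAD54L*, *MSH6*, *CHEK2*, *CHEK1* and *APEX1* was the same in all 14 alternatives. Of the 35 members, 2 were higher and 1 lower in the reported fit, with 4 and 3 by DESeq2, 5 and 3 with GC adjustment, 6 and 14 with 4 libraries, 6 and 9 with 4 libraries and GC adjustment, and 1 higher with genes of at least 10 CPM. Leaving out 1 library gave 0 to 4 higher and 0 to 4 lower, and none passed without control replicate 2 or 3 or lactate replicate 2 or 3. Without these libraries 1.28%, 2.69%, 3.82% and 1.56% of all genes passed, in that order, against 9.43% in the reported fit. The members' median was -0.056 with GC adjustment, -0.079 with both changes and from -0.34 to -0.079 with a library left out. Other repair genes, 3 higher and 2 lower, went to 8 and 7 (DESeq2), 11 and 9 (GC adjustment), 23 and 35 (4 libraries), 22 and 20 (both), 6 and 1 (total size), 1 lower (no filter, and at least 10 CPM), and 0 to 11 and 0 to 14 with a library left out. Of all genes, 15.0% passed by DESeq2, 22.8% with GC adjustment, 47.4% with 4 libraries and 43.7% with both. Total size gave 9.2%, no filter 7.27% and at least 10 CPM 7.79%.

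Some members and PARP genes that had not passed changed sign. Their log2 fold changes were -0.012 for *BARD1* and -0.0041 for *RAD52* by DESeq2, -0.023 and -0.0096 with total size, and -0.010 and -0.011 without a filter. With GC adjustment they were 0.00070 for *ATM*, 0.12 for *MRE11A*, 0.053 for *BRCA2*, -0.22 for *XRCC3*, 0.046 for *PMS2*, -0.080 for *ERCC1*, -0.056 for *FANCA* and 0.078 for *PARP2*. With 4 libraries they were -0.043 for *BARD1*, 0.028 for *XRCC6*, 0.0096 for *PRKDC*, 0.039 for *PMS2* and 0.087 for *PARP1*. With both they were 0.065 for *ATM*, 0.074 for *PRKDC*, 0.30 for *MRE11A*, 0.26 for *BRCA2*, 0.18 for *XRCC2*, -0.21 for *XRCC3*, 0.14 for *PMS2*, -0.17 for *ERCC1*, -0.096 for *FANCA* and 0.16 for *PARP2*, of which *MRE11A* passed as higher and *XRCC3* and *ERCC1* as lower. With a library left out they ran from -0.36 to 0.31 for *BARD1*, -0.36 to 0.053 for *MRE11A*, -0.63 to 0.030 for *PALB2*, -0.61 to 0.091 for *BRCA2*, -0.14 to 0.20 for *RAD52*, -0.13 to 0.043 for *XRCC6*, -0.33 to 0.14 for *PRKDC*, -0.39 to 0.0092 for *OGG1*, -0.14 to 0.064 for *PMS2*, -0.066 to 0.31 for *ERCC1* and -0.077 to 0.041 for *PARP1*.

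The cause of these shifts was not tested. The SE was 0.362 to 0.437 for *LIG4*, *PALB2*, *BARD1* and *BRCA2*, which stayed under 18 CPM, and 0.189 and 0.237 for *XPA* and *RAD52*, also under 18 CPM. No paired analysis was possible because the sample numbers run on from the control to the lactate libraries and pair nothing.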
